A study of Mus musculus with 10 samples.

Results

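The genes described here are Btnl1, Btnl2, Btnl4 and Btnl6, the 4 butyrophilin-like genes chosen by their symbol among the 13932 genes of the deposited count table, and all 4 passed the filter on low counts that left 12477 genes for testing. Butyrophilin-like proteins are membrane proteins of the immunoglobulin superfamily, and in the mouse small intestine they are made by enterocytes. Btnl1 pairs with Btnl6 or Btnl4 at the cell surface, and these pairs are known to mature, select and maintain the gamma delta T cells that live between the epithelial cells. Btnl2, encoded beside Btnl1, is known as an inhibitor of T cell activation. Levels of these genes are known to be higher in differentiated villus enterocytes than in crypt cells.

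RNA was sequenced from live ileal epithelial cells, sorted as CD45-negative and EpCAM-positive, of 10 mice with 1 library per mouse. All mice carry H2-Ab1 fl/fl, a floxed gene for the beta chain of an MHC class II molecule. The 5 WT mice (replicates 2, 4, 6, 8 and 10) are Villin:Cre- and the 5 dIEC mice (replicates 1, 3, 5, 7 and 9) are Villin:Cre+, so that Cre is driven by the villin promoter of epithelial cells; neither the ages nor any treatment of the mice is stated in the labels. The series text gives both genotypes as Cre-negative, and the sample labels are followed here. Each genotype has 3 males (WT 2, 4 and 6; dIEC 1, 3 and 5) and 2 females (WT 8 and 10; dIEC 7 and 9).

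H2-Ab1 stood at 368, 246, 235, 62.9 and 130 CPM (a gene's counts relative to the library's total, which was scaled with TMM factors) in WT 2, 4, 6, 8 and 10, and at 1.99, 3.11, 0.767, 1.84 and 3.01 CPM in dIEC 1, 3, 5, 7 and 9. The groups did not overlap, and H2-Ab1 fell by 6.39 on the log2 scale in dIEC (SE 0.51, edgeR quasi-likelihood test, adjusted p = 0.000904), in the direction of the labels. Libraries held 9174101 to 13484363 counts. The 8 epithelial identity markers summed to 12201 to 14989 CPM per library. Of 25 markers of intraepithelial and other T cells only 3 (Gzma, Cd160 and Lck) had a row in the table, with summed levels of 0.760 to 2.02 CPM in WT and 1.04 to 3.11 CPM in dIEC. The 5 of 15 general leukocyte markers with a row summed to 11.9 to 24.1 CPM in WT and 11.9 to 36.3 CPM in dIEC.

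All 4 genes lie within 163 kb of chromosome 17 (GRCm38, which is also called mm10; GENCODE vM21), near the floxed gene. Between the floxed gene and the members lie H2-Aa and H2-Eb1. Btnl2 lies at chr17:34354822-34369495 on the plus strand and Btnl1 at chr17:34377132-34386028 on the plus strand. Btnl4 lies at chr17:34466562-34477318 and Btnl6 at chr17:34507804-34517352, both on the minus strand. Their lower coordinates lie 85.4 kb (Btnl2), 108 kb (Btnl1), 197 kb (Btnl4) and 238 kb (Btnl6) past the end of H2-Ab1. No other annotated gene overlaps a member. The pseudogene Btnl5-ps lies between Btnl4 and Btnl6, and the pseudogene Btnl7-ps beyond Btnl6, outside the span of the members. Of all 50-base stretches of the annotated transcripts 13.8% of those of Btnl4 and 6.58% of those of Btnl6 recur in another gene of the cluster, against 0% for Btnl1 and Btnl2. The labels do not say how reads that fit several genes were counted, so the counts of Btnl4, Btnl6 and the pseudogenes are uncertain to that extent.

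The 250 bases before the RefSeq start of each gene (GRCm38.p6, written 5′ to 3′ on the gene's strand) are shown because the 4 transcripts varied together among libraries, as described below. Capitals mark the letters CAAAGTCC, the core of a site for the enterocyte factors HNF4A and HNF4G, and with a following A the longer form CAAAGTCCA.
Btnl2, chr17:34354572-34354821, plus strand: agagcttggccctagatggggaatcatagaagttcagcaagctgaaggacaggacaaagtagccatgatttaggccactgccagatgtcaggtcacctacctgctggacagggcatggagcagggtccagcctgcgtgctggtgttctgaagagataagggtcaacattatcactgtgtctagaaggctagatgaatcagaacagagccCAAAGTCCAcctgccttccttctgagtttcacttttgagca
Btnl1, chr17:34376882-34377131, plus strand: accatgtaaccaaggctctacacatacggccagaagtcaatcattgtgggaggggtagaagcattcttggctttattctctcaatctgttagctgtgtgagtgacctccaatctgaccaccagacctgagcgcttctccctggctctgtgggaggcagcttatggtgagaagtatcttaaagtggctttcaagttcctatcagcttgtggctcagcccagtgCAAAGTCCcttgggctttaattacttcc
Btnl4, chr17:34475938-34476187, minus strand: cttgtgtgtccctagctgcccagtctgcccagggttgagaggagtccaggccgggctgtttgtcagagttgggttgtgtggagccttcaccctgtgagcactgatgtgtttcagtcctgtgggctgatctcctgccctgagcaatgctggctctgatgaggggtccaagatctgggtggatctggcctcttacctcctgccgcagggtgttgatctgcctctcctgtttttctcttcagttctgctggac
Btnl6, chr17:34517353-34517602, minus strand: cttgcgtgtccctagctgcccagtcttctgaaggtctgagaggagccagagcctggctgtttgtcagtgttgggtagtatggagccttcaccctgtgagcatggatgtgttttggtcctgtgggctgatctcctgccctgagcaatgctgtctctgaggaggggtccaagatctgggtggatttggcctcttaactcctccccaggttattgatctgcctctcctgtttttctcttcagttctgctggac
The 9-letter form occurred in Btnl2, 41 bases before the start, and in 0.384% of the 32851 promoters of the same table, searched over the same 250 bases on both strands. The 8-letter core, which contains no more than the first 8 letters of that form and was tried after the promoters had been read, also occurred in Btnl1, 28 bases before the start, and in 1.20% of all promoters. A GATA motif, AGATAA, occurred in Btnl2 98 bases before the start and in 9.99% of promoters. GTTAAT, a half-site of HNF1, and TTTATG, a CDX motif, occurred in 6.43% and 10.8% of promoters and in no member. The Btnl4 and Btnl6 windows were identical at 90.5% of aligned positions, and every other pair of the 4 at 48.0% to 50.4%. The RefSeq start of Btnl4 lies 1381 bases inside the gene as GENCODE draws it, so that its window falls in an intron of a GENCODE transcript. These matches describe the letters only.

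Btnl1, the shared partner of the surface pairs, was among the more abundant transcripts of these cells. Its level was 376, 588, 408, 508 and 642 CPM in WT 2, 4, 6, 8 and 10, and 496, 488, 519, 787 and 340 CPM in dIEC 1, 3, 5, 7 and 9. The highest and the lowest value both came from dIEC females, so the dIEC libraries spanned the whole WT range.

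Btnl6, the partner of Btnl1 in the pair best known from the small intestine, had the highest mean CPM of the 4. In WT 8 Btnl6 lay below Btnl1 (494 against 508 CPM). It stood at 446, 743, 520, 494 and 712 CPM in WT 2, 4, 6, 8 and 10, and at 672, 640, 660, 1008 and 408 CPM in dIEC 1, 3, 5, 7 and 9. The 3 dIEC males lay close together, and the 2 dIEC females were again the extremes of all 10 libraries.

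Btnl4, the other partner of Btnl1, was measured at 134, 245, 160, 131 and 197 CPM in WT 2, 4, 6, 8 and 10, and at 187, 196, 221, 267 and 122 CPM in dIEC 1, 3, 5, 7 and 9. Btnl2 was measured at 161, 280, 156, 154 and 277 CPM in the same WT libraries, and at 198, 219, 243, 345 and 116 CPM in the same dIEC libraries. In both genes dIEC 7 was the highest and dIEC 9 the lowest library, and the genotypes overlapped. Together the 4 members took 0.119% to 0.195% of all counts of a library.

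**Figure D1:**
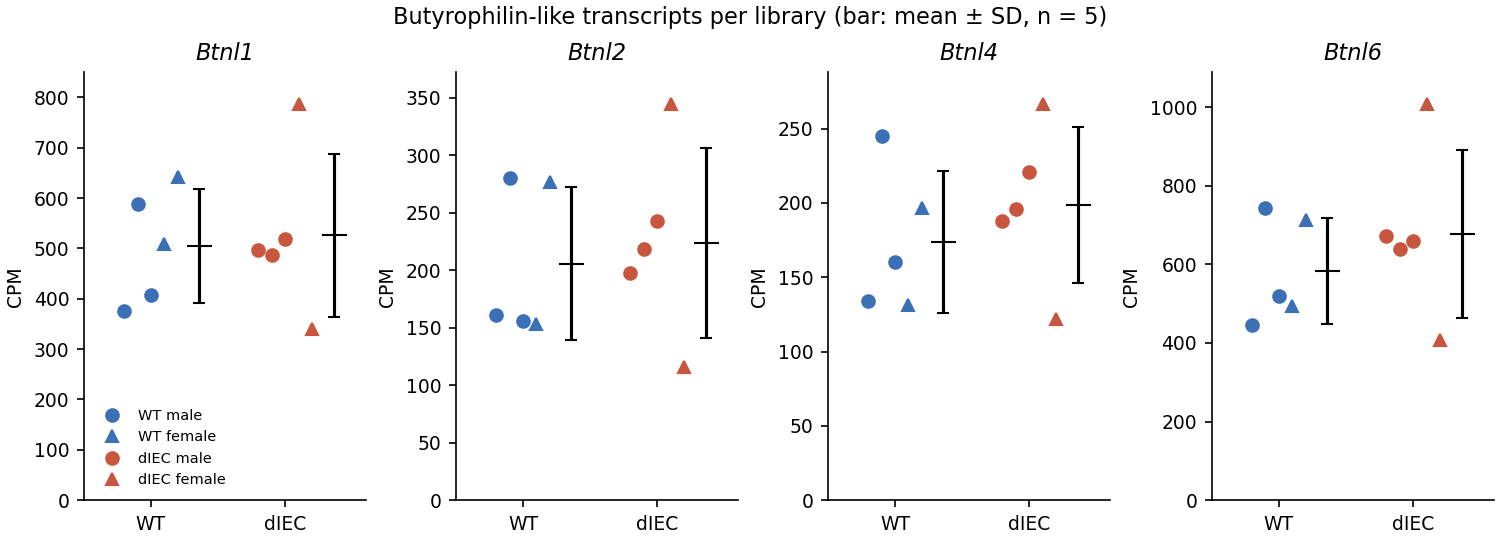
Levels of Btnl1, Btnl2, Btnl4 and Btnl6 in CPM (vertical axes, from 0) in each of 10 libraries by genotype, with circles for males, triangles for females and bars for the mean ± SD of 5 libraries. In every panel the highest and the lowest library are the 2 dIEC females, and the WT libraries lie between them.

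Per kilobase of annotated exon, which allows levels to be compared between genes, the order was Btnl6, Btnl1, then Btnl2 and Btnl4. Btnl6 averaged 360 CPM per kb and ranked 109 among 12325 tested genes with an annotated length. Btnl1 averaged 160 CPM per kb (rank 264), Btnl2 83.0 (rank 548) and Btnl4 78.1 (rank 584). Btnl6 lay above Btnl1 in 10 of 10 libraries, by 2.25-fold ± 0.207 (SD, n = 10), and Btnl1 lay above Btnl2 and Btnl4 in 10 of 10. Btnl2 lay above Btnl4 in 7 of 10 libraries, and their mean log2 ratio per kb of 0.06 ± 0.17 (SD, n = 10) was smaller than its spread, so these neighbours in the order did not differ beyond their spread.

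The first comparison asks whether loss of epithelial H2-Ab1 goes with a change of the butyrophilin-like genes. Mean levels in WT and dIEC were 504 ± 114 and 526 ± 162 CPM for Btnl1, 583 ± 135 and 678 ± 214 CPM for Btnl6, 173 ± 47.8 and 199 ± 52.6 CPM for Btnl4, and 206 ± 66.6 and 224 ± 82.6 CPM for Btnl2 (SD, n = 5 each). None of the 4 passed the test. The log2 fold changes of dIEC against WT were 0.07 (SE 0.23) for Btnl1, 0.22 (SE 0.25) for Btnl6, 0.20 (SE 0.24) for Btnl4 and 0.12 (SE 0.30) for Btnl2, each with an adjusted p of 0.9999 in edgeR's quasi-likelihood test with sex in the model. Of the members 0 of 4 were called, and 0 of 4 had an unadjusted p under 0.05. Over all genes 0.016% were called in either direction (2 of 12477), and 355 had an unadjusted p under 0.05. DESeq2 and limma voom also called 0 of the 4.

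The 95% intervals bound what these 10 libraries could show. As ratios of dIEC to WT they ran from 0.735 to 1.49 for Btnl1, 0.791 to 1.71 for Btnl6, 0.793 to 1.66 for Btnl4 and 0.688 to 1.73 for Btnl2. A 2-fold difference lay outside all 4 intervals, and smaller differences in either direction lay inside them. Counting error was small beside this, since members had 1576 to 8771 counts per library. Without dIEC 7 the 4 estimates turned to -0.13 (Btnl1), -0.02 (Btnl6), -0.01 (Btnl4) and -0.15 (Btnl2), so 1 library set their sign, and Btnl1 also turned to -0.01 without WT 2. In bulk RNA, fewer cells of a type and less RNA per cell cannot be told apart.

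With the maturity score described below as a further covariate, the standard errors shrank to 0.09 to 0.10 while the estimates stayed near their first values. The log2 fold changes were then 0.10 (Btnl1), 0.26 (Btnl6), 0.25 (Btnl4) and 0.17 (Btnl2). Unadjusted p-values of this edgeR fit were 0.0273 for Btnl6 and 0.0200 for Btnl4, and adjusted over all genes they were 0.373 and 0.351. For Btnl1 and Btnl2 the adjusted p-values were 0.679 and 0.478, so no member passed. Low unadjusted p-values were common in this fit. They lay under 0.05 for 1493 of all 12477 genes, against 355 without the score, and 2 genes were called in either fit.

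**Figure D2:**
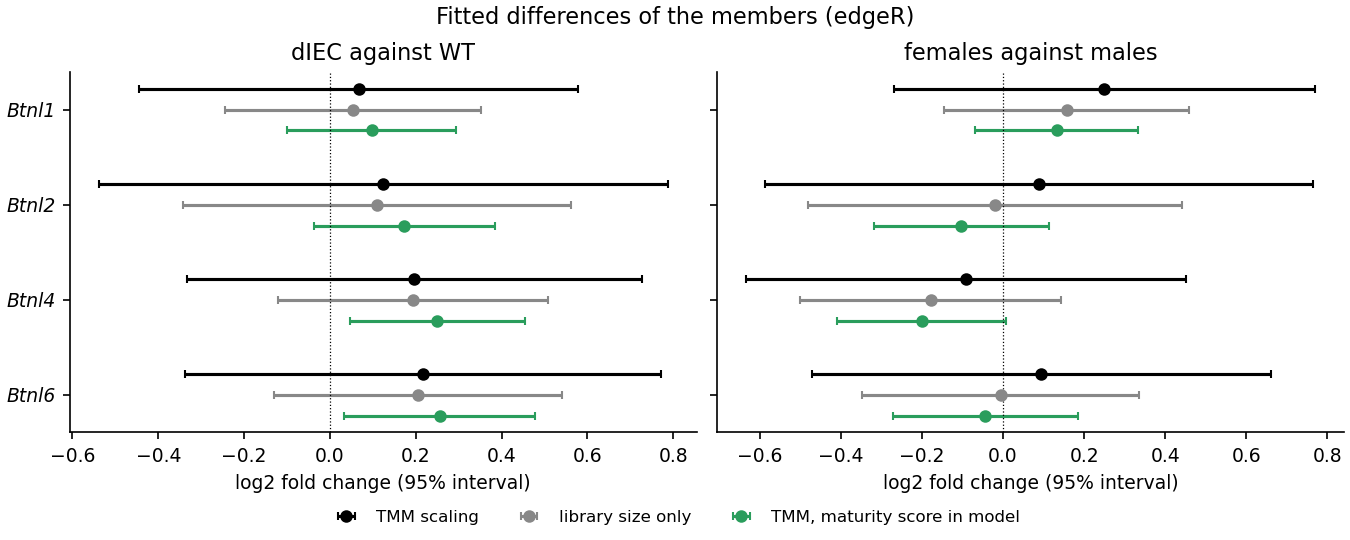
Log2 fold changes of the 4 members (horizontal axes) with their 95% intervals from edgeR, for dIEC against WT on the left and females against males on the right, under TMM scaling, under scaling by library size only, and under TMM scaling with the maturity score in the model. The intervals under the first 2 settings include 0 for all 4 members in both comparisons, and those with the score are the narrowest.

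Genes around the members were examined because the deletion lies in the same stretch of chromosome 17. Besides H2-Ab1, 44 tested genes start within 400 kb of it, members included, and 0 of these were called by edgeR, with 1 at an unadjusted p under 0.05. Of these 26 had higher values in dIEC, beside 52.6% of all genes. Their median log2 fold change was 0.05, against 0.01 over all genes. The 2 MHC class II genes between H2-Ab1 and the members varied widely: WT libraries averaged 54.4 ± 52.1 CPM of H2-Aa and dIEC libraries 343 ± 404 CPM, and H2-Eb1 averaged 56.4 ± 43.5 and 233 ± 255 CPM (SD, n = 5 each). On the far side, the receptor gene Notch4, the homeobox gene Pbx2 and the receptor gene Ager had log2 fold changes of 0.06, -0.09 and -0.50, and Tap2, the peptide transporter gene before H2-Ab1, 0.32, with adjusted p = 0.9999 each.

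The pseudogenes of the cluster were transcribed at levels like those of the members. Btnl5-ps averaged 388 ± 110 CPM over WT and 488 ± 152 CPM over dIEC libraries, and Btnl7-ps at 177 ± 65.0 and 224 ± 80.2 CPM (SD, n = 5 each). Per kb, Btnl5-ps (206 CPM per kb) lay between Btnl6 and Btnl1, and Btnl7-ps (114 CPM per kb) between Btnl1 and Btnl2. Their log2 fold changes of 0.33 (SE 0.27) and 0.33 (SE 0.33) did not pass the edgeR test (adjusted p = 0.9999). Part of these counts cannot be assigned with certainty, given the sequence they share with Btnl4 and Btnl6.

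**Figure D3:**
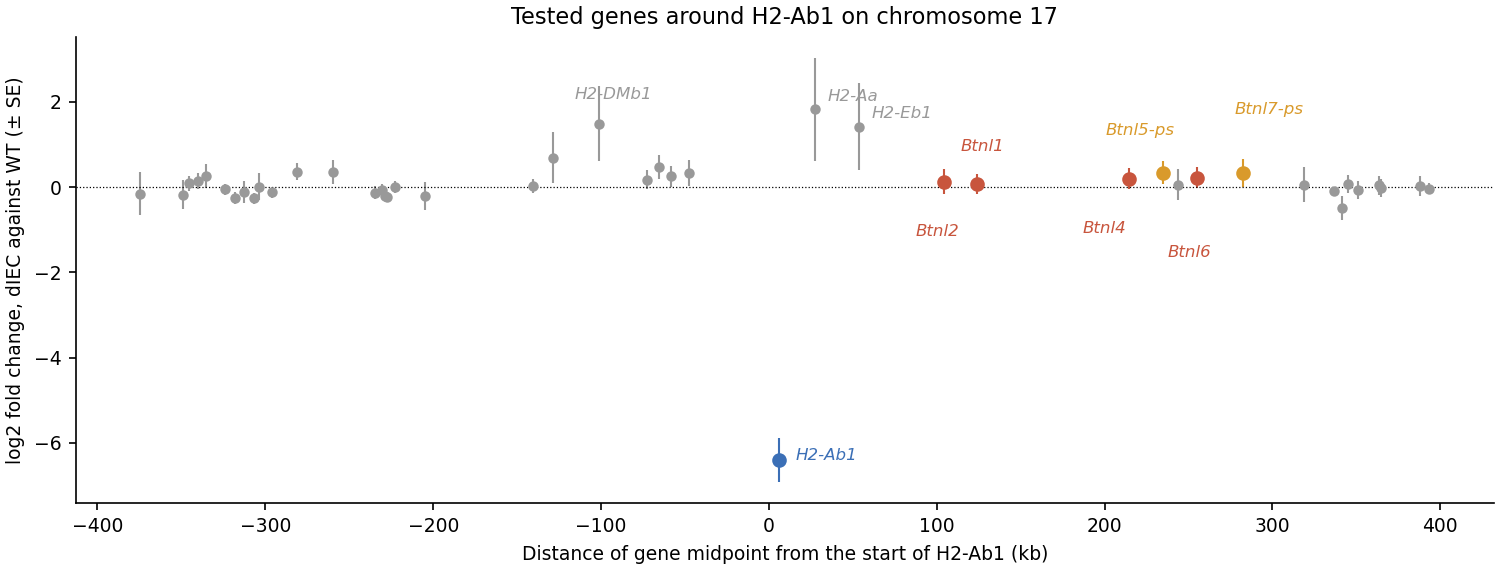
Log2 fold change of dIEC against WT with its SE (vertical axis) for every tested gene within 400 kb of H2-Ab1, by the distance of its midpoint from the start of H2-Ab1 in kb (horizontal axis); members are red, the 2 pseudogenes yellow, H2-Ab1 blue and other genes grey. H2-Ab1 lies at -6.39, and the members lie between 0.07 and 0.22.

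The second comparison was between the sexes. Females and males averaged 569 ± 191 and 479 ± 76.9 CPM for Btnl1, 655 ± 268 and 613 ± 109 CPM for Btnl6, 179 ± 67.0 and 190 ± 40.0 CPM for Btnl4, and 223 ± 106 and 209 ± 48.0 CPM for Btnl2 (SD, n = 4 females and 6 males). The log2 fold changes of females against males were 0.25 (SE 0.23) for Btnl1, 0.09 (SE 0.25) for Btnl6, -0.09 (SE 0.24) for Btnl4 and 0.09 (SE 0.30) for Btnl2, with adjusted p = 0.9996 each in edgeR's test. Here 0 of 4 members were called and 0 had an unadjusted p under 0.05, beside 0.0401% of all genes called in either direction (5 of 12477). DESeq2 and limma voom called 0 of the 4. Under scaling by library size only, Btnl2 and Btnl6 turned to -0.02 and -0.01. The product of sex and genotype, which asks whether the genotype difference differs between the sexes, gave log2 values of -0.16 (SE 0.50) for Btnl1, 0.02 (SE 0.54) for Btnl6, 0.08 (SE 0.52) for Btnl4 and -0.05 (SE 0.65) for Btnl2. For this term edgeR called 0 of 4 members, with 0 at an unadjusted p under 0.05, beside 0.00801% of all genes (1 of 12477), and DESeq2 and limma voom called 0 members.

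The third question was how the members relate to enterocyte maturity. A maturity score was the mean log2 CPM of 34 genes of mature enterocytes, such as the brush border peptidase gene Anpep, the lipoprotein gene Apob and the villin gene Vil1. The score ran from 9.73 in dIEC 9 to 11.05 in dIEC 7, the libraries with the lowest and the highest level of all 4 members. All 4 rose with the score over the 10 libraries. Btnl1 had a Pearson r of 0.948 (permutation p = 5e-05, adjusted 0.00145) and a Spearman rho of 0.964 (permutation p = 6e-05, adjusted 0.00280). Btnl2 had r = 0.950 (p = 6e-05, adjusted 0.00158) and rho = 0.903 (p = 0.000720, adjusted 0.00710) in the same permutation tests. Btnl6 had r = 0.893 (permutation p = 0.000710, adjusted 0.00533) and rho = 0.891 (p = 0.00100, adjusted 0.00830). Btnl4 had r = 0.866 (permutation p = 0.00125, adjusted 0.00743) and rho = 0.891 (p = 0.000990, adjusted 0.00830). P-values were adjusted over the 12443 genes not in the score.

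This relation is common among genes of these libraries. Of all genes compared, 21.3% were called with a positive r and 19.7% with a negative r, so the calls of the 4 members are not unusual as such. By size of r, 1.35% of genes had a higher value than Btnl1, 1.26% than Btnl2, 5.36% than Btnl6 and 7.88% than Btnl4. In an edgeR model with sex and genotype, a score higher by 1 log2 unit went with a log2 increase of 0.82 (SE 0.12) for Btnl1, 0.88 (SE 0.13) for Btnl6, 0.86 (SE 0.12) for Btnl4 and 1.14 (SE 0.13) for Btnl2. Against a score of 26 proliferation genes, the members fell, with r from -0.975 (Btnl1) to -0.806 (Btnl4), adjusted permutation p of 0.000655 and 0.0196. There 99.9% of all genes had a higher r than Btnl1, and 87.5% a higher r than Btnl4.

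Scaling and 2 libraries bear on the size of these relations. The TMM factors ran from 0.812 in dIEC 7 to 1.21 in dIEC 9, the 2 ends of the score. Over all 10 libraries they had r = -0.983 with the score, so scaling and score cannot be told apart here. The relation was therefore also computed with library size only. The r values were then 0.834 (Btnl1), 0.880 (Btnl2), 0.697 (Btnl6) and 0.636 (Btnl4), and the permutation p adjusted over all genes was 0.0128, 0.00647, 0.0592 and 0.0957, so Btnl1 and Btnl2 passed and the others did not, where 4.44% of all genes were called with a positive r. Without dIEC 7 and dIEC 9, the libraries farthest from the median score, r was 0.926 for Btnl1 (exact permutation test, adjusted p = 0.0262), 0.895 for Btnl2 (0.0559), 0.807 for Btnl6 (0.107) and 0.753 for Btnl4 (0.145) over 8 libraries, where 3.18% of all genes were called with a positive r. Among the 6 males alone r was 0.913, 0.942, 0.837 and 0.958 for Btnl1, Btnl2, Btnl6 and Btnl4, with exact permutation p-values adjusted to 0.117, 0.0955, 0.166 and 0.0840, where 0% of all genes were called with a positive r. No correlation was computed over the 4 females.

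**Figure D4:**
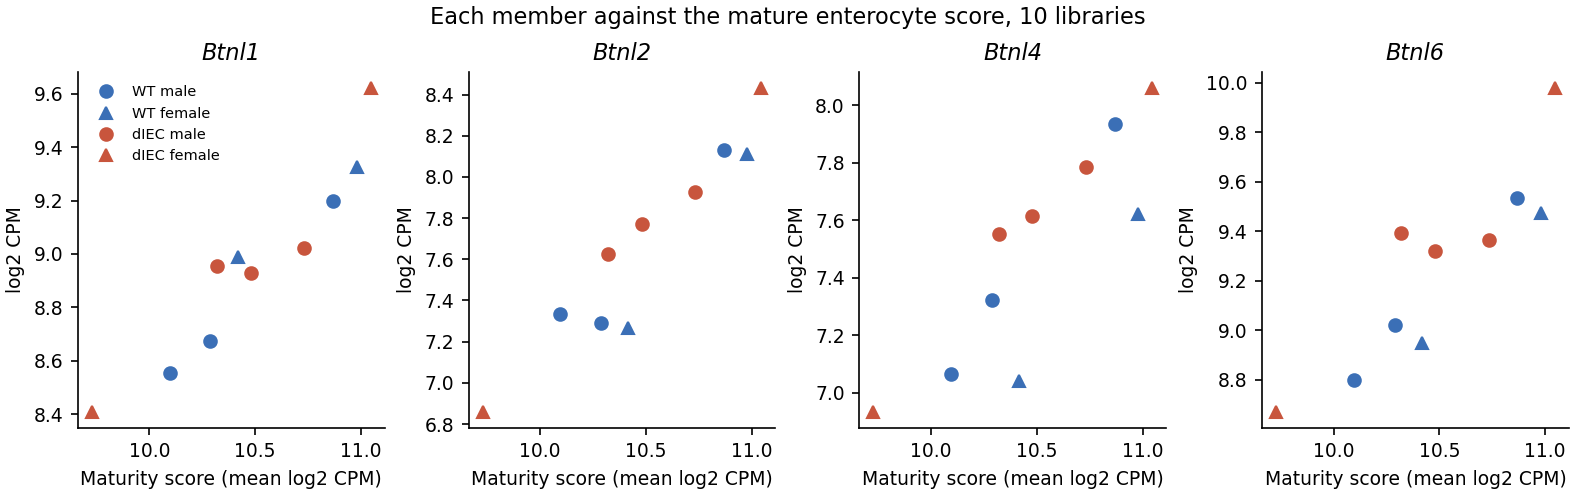
Log2 CPM of each member (vertical axes) against the maturity score, the mean log2 CPM of 34 enterocyte genes (horizontal axes), with 1 point per library, blue for WT and red for dIEC, circles for males and triangles for females. The points rise from dIEC 9 at a score of 9.73 to dIEC 7 at 11.05, with WT 8, the blue triangle near 10.42, low for its score in Btnl2, Btnl4 and Btnl6.

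The members were also set against scores of 10 other lists (40 relations, adjusted over them). The villus tip and proliferation scores among these were planned, and the other 8 were added after the first results were seen. Btnl4 had r = 0.969 with 13 villus tip genes (permutation p = 1e-05, the smallest the draws can give, adjusted 0.000133; rho = 0.964, p = 4e-05) and r = -0.724 with 17 crypt stem cell genes (p = 0.0177, adjusted 0.0374; rho = -0.758, p = 0.0146). Btnl1 had r = 0.746 with the villus tip genes (permutation p = 0.0124, adjusted 0.0293; rho = 0.721, p = 0.0227) and r = -0.976 with the stem cell genes (p = 1e-05, adjusted 0.000133; rho = -0.988, p = 1e-05). For Btnl2 and Btnl6 the tip and stem cell values lay in between, with r of 0.890 and 0.893 for the tip (adjusted permutation p of 0.00211 and 0.00168; rho 0.927 and 0.855) and -0.855 and -0.861 for the stem cell genes (adjusted 0.00528 and 0.00515; rho -0.782 and -0.855). A positive relation to the tip score was common, with 21.97% of 12464 genes called (permutation p adjusted over these genes). A higher r with the tip than that of Btnl1 was found for 19.7% of genes. For Btnl2, Btnl6 and Btnl4 this share was 7.90%, 7.59% and 0.489%. No such share was computed for the stem cell genes. Without the 2 libraries farthest from the median of each score, r with the tip genes was 0.951 for Btnl4, 0.866 for Btnl6, 0.834 for Btnl2 and 0.830 for Btnl1, and r with the stem cell genes was -0.682 for Btnl4 and -0.980 for Btnl1. The differences between these correlations were not tested directly. The log2 ratio of Btnl4 to Btnl1 counts had r = 0.486 with the tip score (permutation p = 0.1502, adjusted over 18 relations 0.3004). That r was 0.113 without the 2 farthest libraries and 0.916 among the 6 males. The ratio of Btnl2 to Btnl1 had r = 0.784 with the tip score (adjusted permutation p = 0.0670) and rho = 0.891 (adjusted 0.0252). So a closer relation of Btnl4 than of Btnl1 to the tip score did not pass.

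The 4 members varied together, as did many genes of these libraries. The widest range was that of Btnl2, 2.97-fold between the lowest and the highest library, and the others ranged 2.18-fold (Btnl4) to 2.47-fold (Btnl6). Under scaling by library size only the ranges were 1.55-fold to 1.99-fold. The pair Btnl2 and Btnl6 had r = 0.956 and rho = 0.927, Btnl4 and Btnl6 r = 0.953 and rho = 0.927, and Btnl2 and Btnl4 r = 0.947 and rho = 0.976 over 10 libraries, each with a permutation p for r adjusted over the 6 pairs of 1e-04. Btnl1 had r = 0.934 with Btnl6 (rho 0.891, adjusted permutation p for r 0.000204), 0.921 with Btnl2 (rho 0.842, adjusted 0.000204) and 0.831 with Btnl4 (rho 0.830, adjusted 0.00279). By r with a given member, the other members ranked from 161 (Btnl2 for Btnl6) to 1740 (Btnl1 for Btnl4) among 9327 genes, so that many other genes followed each member more closely. Btnl1 and Btnl4 had the lowest r of the 6 pairs, and it dropped to 0.521 (adjusted permutation p = 0.125) under scaling by library size only. In that setting rho was 0.406 for Btnl1 and Btnl4, 0.648 for Btnl1 and Btnl2, and 0.624 for Btnl1 and Btnl6 (adjusted permutation p of 0.248, 0.0726 and 0.0726), which also missed the threshold. Without dIEC 7 and dIEC 9, r ran from 0.657 (Btnl1 and Btnl4) to 0.914 (Btnl2 and Btnl6) over 5 pairs. For Btnl4 and Btnl6 the farthest libraries were WT 8 and dIEC 9, and r without them was 0.938.

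Ratios of 2 members within a library need no scaling, and were examined after the levels had been seen. The ratio of Btnl4 to Btnl1 counts was 0.357, 0.416 and 0.392 in the WT males 2, 4 and 6, 0.378, 0.402 and 0.425 in the dIEC males 1, 3 and 5, 0.259 and 0.306 in the WT females 8 and 10, and 0.339 and 0.360 in the dIEC females 7 and 9. All females lay below all males but for dIEC 9, which lay just above WT 2. On the log2 scale females were lower by a difference of -0.33 (exact permutation test over 210 assignments, two-sided, p = 0.00952, and 0.0571 adjusted over the 6 ratios), which did not pass after adjustment. The adjusted exact p was 0.0476 without WT 2 or without dIEC 9, so that the call depends on either library. The ratio of Btnl6 to Btnl1 was 1.19, 1.26, 1.27, 0.971 and 1.11 in WT 2, 4, 6, 8 and 10, and 1.35, 1.31, 1.27, 1.28 and 1.20 in dIEC 1, 3, 5, 7 and 9. On the log2 scale dIEC was higher by 0.15 (exact permutation test over 252 assignments, p = 0.0556, adjusted 0.333), and by 0.09 without WT 8. In females this ratio differed by -0.17 from males, and that of Btnl6 to Btnl4 by 0.16 (exact permutation p = 0.0429 and 0.0333, adjusted 0.0857 each). For Btnl4 to Btnl1, dIEC minus WT was 0.15 (exact permutation p = 0.310, adjusted 0.619). Adjustment covered the 6 ratios of each contrast separately. WT 8 had the lowest ratio of Btnl2, Btnl4 and Btnl6 to Btnl1.

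**Figure D5:**
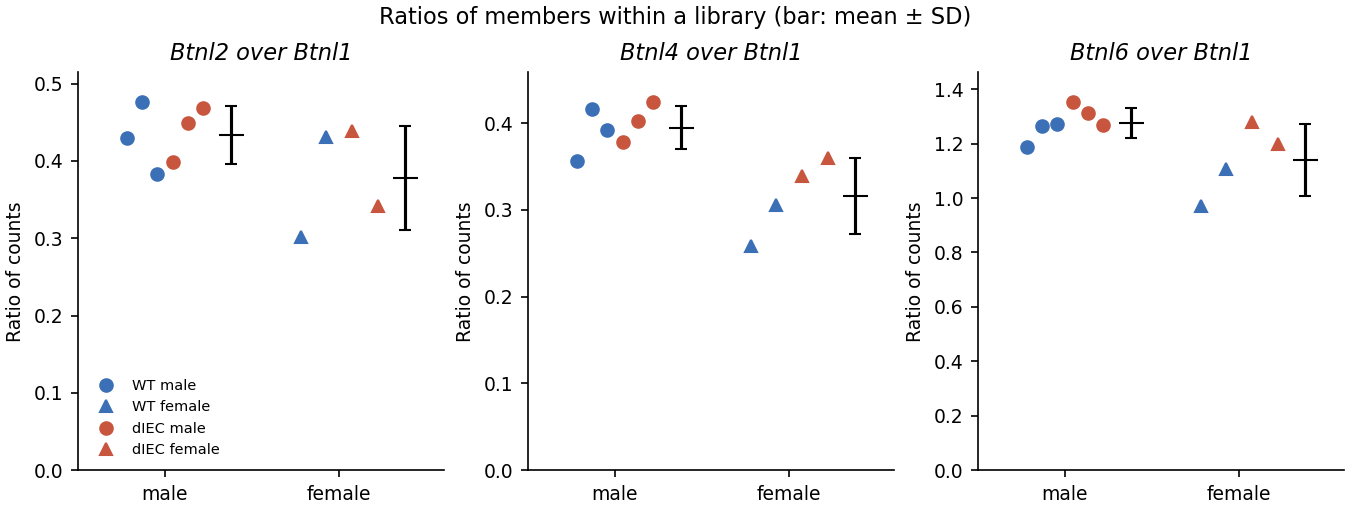
Ratio of the counts of Btnl2, Btnl4 and Btnl6 to those of Btnl1 within each library (vertical axes, from 0) by sex, with WT in blue, dIEC in red and bars for the mean ± SD of 6 males or 4 females. The female ratios of Btnl4 to Btnl1 run from 0.259 to 0.360 and the male ratios from 0.357 to 0.425.

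By Pearson r of log2 CPM over the 10 libraries, among 9327 genes with a mean of at least 5 CPM, the genes most like Btnl1 were Pdzd3 (r = 0.987), a PDZ scaffold gene of the brush border, Ubxn6, Snx9, Myo5b, a motor gene of apical traffic, and Stap2. For Btnl6 they were Slc9a3r1 (r = 0.991), the scaffold NHERF gene of microvilli, Stk24, Lrrc8d, Fam83g and Trpm4. For Btnl4 they were Specc1l (r = 0.993), the protein kinase C gene Prkcd, Arhgef5, the TGF-beta inhibitor gene Smad7, and Lmtk2. For Btnl2 they were Fam160a1 (r = 0.992), Foxj3, the MHC class I gene H2-Q2, the phosphatidylcholine synthesis gene Pcyt1a, and the amino acid transporter gene Slc43a2. The lowest r were with Lin9, Clic6 and the stem cell gene Lrig1 for Btnl1, with Bcs1l, Cetn3 and Trap1 for Btnl6, with Phb, Mid1ip1 and Nln for Btnl4, and with Pde8b, Gpam and Cse1l for Btnl2, each at -0.98 or -0.99. No gene appeared in the top 5 of 2 members. These r rest on TMM scaling and were not computed with library size only.

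Other genes of the same system were read from the same fits. Of 24 other butyrophilin and B7 family genes 3 had a row (Icosl, Cd274 and Cd276). Cd274, which encodes the ligand PD-L1, averaged 2.32 ± 1.38 CPM over WT and 7.55 ± 5.55 CPM over dIEC libraries (SD, n = 5 each; log2 fold change 1.66, SE 0.57, edgeR adjusted p = 0.9999). Of 17 tested epithelial genes that attract, hold or feed intraepithelial lymphocytes, 0 were called for genotype by edgeR. An unadjusted p under 0.05 was found for 3, beside 355 of all 12477 genes. Higher values in dIEC were found for 14, beside 52.6% of all genes (median log2 fold change 0.20, against 0.01 over all genes). With the maturity score, 4 of these 17 rose and 1 fell (adjusted permutation p under 0.05 over all genes), shares near or below the 21.3% and 19.7% of all genes. Those that rose were the E-cadherin gene Cdh1, the chemokine gene Cx3cl1 (r = 0.917), the CD8-alpha-alpha ligand gene H2-T3 (r = 0.870) and the cytokine gene Il15 (r = 0.839), and the one that fell was the chemokine gene Ccl28 (r = -0.934). Il15 and Ccl28 are named for their calls.

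Of 19 transcription factor genes of enterocyte identity, 0 were called for genotype (0 at an unadjusted p under 0.05, median log2 fold change 0.11), and 10 rose and 0 fell with the maturity score (adjusted permutation p over all genes), beside the 21.3% and 19.7% of all genes. The 2 HNF4 genes were among those that rose: Hnf4a averaged 880 ± 84.9 CPM over WT and 948 ± 176 CPM over dIEC libraries and had r = 0.726 (rho 0.745, adjusted permutation p = 0.0403), and Hnf4g stood at 702 ± 150 and 645 ± 120 CPM and had r = 0.875 (rho 0.855, adjusted 0.00665). Creb3l3, a lipid-regulating factor gene of the villus, had r = 0.991. The genes Maf, Elf3 and Klf4 had r of 0.77, -0.02 and 0.81 with the score. Cdx1 and Cdx2, which are named outside the rule by level, had r of -0.27 and -0.03.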

How the data were processed

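Bulk RNA-seq was made from sorted ileal epithelial cells of 10 mice. The deposited values are raw counts per gene from reads aligned to mm10 by Novoalign, as the submitters' processing notes have it; the kit was stranded and depleted ribosomal RNA, per the labels' protocols. No label names the counter, its strand setting or its annotation. Samples were grouped by their labels, and p-values measure the spread between mice.

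Counts were filtered with filterByExpr by genotype (12477 of 13932 genes kept), scaled by TMM and tested with edgeR 4.0.16 (R 4.3.3; quasi-likelihood, robust) on sex plus genotype, or their product, with Benjamini-Hochberg adjustment over all genes and a threshold of 0.05. A first fit had used filterByExpr by sex and genotype (12966 genes); the filter was changed after its output was seen, and calls numbered 2, 5 and 1 with both. The SE divides the log2 fold change by the root of F. Log2 CPM used a prior count of 2. Correlations used 100000 permutations (two-sided), or all of them below 10 libraries, in Python 3.11.15. Alternatives were DESeq2 1.42.0, limma 3.58.1 voom, other scalings and filters, covariates, subsets and leaving out each library. Ratios, 8 of the 10 other list scores and the shorter HNF4 motif were added after the data were seen. Members and gene lists were chosen with earlier results of these data known. Named genes are the members, H2-Ab1, per member the 5 highest and 3 lowest r, up to 6 genes per list by level, and the nearest neighbours on chromosome 17. Lengths and positions come from GENCODE vM21 (12325 tested genes matched) and promoters from RefSeq (4 of 4 members matched). Scripts were tested on simulated data. Libraries of 1 group differed pairwise by far more than counting error (chi-square per degree of freedom from 17.0 to 163).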

Additional observations from a re-analysis of the deposited data

How the results depend on the processing

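Under 22 alternatives for genotype, 21 for sex and 17 for their interaction, 0 of 4 members were called in each. Estimates near 0 changed sign in some. For dIEC against WT, leaving out 1 library gave log2 fold changes of -0.13 to 0.23 (Btnl1), -0.15 to 0.31 (Btnl2), -0.00998 to 0.36 (Btnl4) and -0.0194 to 0.38 (Btnl6), the lowest each time without dIEC 7; Btnl1 was also -0.00914 without WT 2 and -0.027 in females only. For females against males these ranges were, in the same order, 0.01 to 0.46, -0.25 to 0.33, -0.35 to 0.0836 and -0.20 to 0.30. Btnl2 was -0.0204 and Btnl6 -0.00557 by library size only, and -0.103 and -0.0434 with the maturity score as covariate. With the proliferation score they were -0.32 and -0.21, Btnl1 was -0.0182 and Btnl4 -0.37 (adjusted p 0.0659, 0.200, 0.930 and 0.0545). For the interaction, leaving out 1 library gave -0.90 to 0.32, -1.04 to 0.54, -0.60 to 0.53 and -0.78 to 0.53, and Btnl6 was -0.0221 by library size only and -0.0644 with limma voom.

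DESeq2 called 4, 13 and 18 genes for genotype, sex and interaction, against 2, 5 and 1. Genotype in females only gave 0 genes. Sex with the maturity and the proliferation score gave 11 and 316. The interaction gave 0 by library size only, 2 with limma voom and 0 to 1 when 1 library was left out. The proliferation list as score gave r of -0.975 (Btnl1), -0.923 (Btnl2), -0.806 (Btnl4) and -0.896 (Btnl6). All 26 genes of that list fell with the maturity score. The relation to maturity missed the threshold in males only (r 0.913, 0.942, 0.958 and 0.837, with fewer samples), without the 2 farthest libraries for Btnl2 (0.895), Btnl4 (0.753) and Btnl6 (0.807), and by library size only for Btnl4 (0.636) and Btnl6 (0.697); leaving out 1 library gave 0.820 to 0.976 over the 4, and all stayed past it. The pair Btnl1 and Btnl4 missed it by library size only (0.521); there Spearman's rho of Btnl1 with Btnl2 (0.648) and Btnl6 (0.624) missed it too (adjusted permutation p 0.0726 each). The log2 ratio of Btnl2 to Btnl1 for dIEC minus WT ran from -0.0419 (without WT 8) to 0.130 with 1 library left out, and Btnl4 to Btnl1 for females minus males was -0.24 to -0.40 (adjusted exact p 0.0476 to 0.143) with 1 library left out. The causes were not tested. Counting error is small for the members beside the spread between mice. No paired analysis was possible because the genotypes share no replicate numbers.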

Other observations

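No member passed in its relation to the goblet cell or the interferon gamma score. Over 10 libraries r of the members with 9 goblet cell genes ran from -0.266 (Btnl1) to 0.184 (Btnl4). The adjusted permutation p over 40 relations was 0.552 and 0.666. Genes of this list differed in direction, so their mean hides them: r with Btnl6 was -0.799 for Spink4, -0.647 for Agr2, 0.418 for Muc2 and 0.430 for Fcgbp. With 20 tested genes of the interferon gamma response r ran from 0.057 (Btnl1, adjusted 0.894) to 0.261 (Btnl6, adjusted 0.554). These last values rest on 2 libraries: without WT 8 and dIEC 7, the ones farthest from the median of that score, r was -0.755 for Btnl1, -0.702 for Btnl2, -0.717 for Btnl4 and -0.709 for Btnl6.

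With 11 genes of the villus bottom, such as those of Reg3 lectins, r was -0.861 for Btnl4 (rho -0.794, permutation p = 0.00180, adjusted 0.00655) and -0.558 for Btnl1 (rho -0.576, p = 0.0937, adjusted 0.134). All 11 of these genes had lower values in dIEC, beside 5913 of all 12477 genes. By edgeR 0 were called, and 2 had an unadjusted p under 0.05, beside 355 of all genes. Their median log2 fold change was -0.42, against 0.01 over all genes. With 17 genes that attract, hold or feed lymphocytes r was 0.859 (Btnl4), 0.805 (Btnl6), 0.743 (Btnl2) and 0.575 (Btnl1). The adjusted permutation p was 0.00528, 0.0164, 0.0294 and 0.129. The share of all genes that would pass was not computed for the lists of this paragraph. With proximal small intestine genes Btnl2 and Btnl1 passed (r 0.769 and 0.718, adjusted 0.0260 and 0.0374). Without WT 10 and dIEC 9, r was 0.636 for Btnl2 and 0.534 for Btnl1. The proximal list shares Lct, Fabp1 and Slc2a5 with the maturity list. With Paneth cell genes only Btnl1 passed (r -0.750, adjusted 0.0293), and r was -0.396 without WT 10 and dIEC 7. With distal genes no member passed. Among 40 groups of libraries (levels and ratios of members by genotype and sex) 0 held a library set apart by Dixon's criterion, where chance would give 2.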
